A study of Homo sapiens with 8 samples.

Results

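The genes described here are 36 genes of the unfolded protein response and of protein folding in the endoplasmic reticulum (ER), taken by symbol from a list. The rule uses no measured value, though the list was drawn up with earlier results of these data known. They are 10 chaperones and cochaperones, 2 lectins, 6 oxidoreductases and oxidases, 9 genes of ER-associated degradation, 4 sensors and transcription factors, and 5 genes of the protein translocation channel and its surroundings. All 36 were found in at least 1 library, among 12235 genes listed in the series.

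The series measured ribosome footprints, the mRNA fragments that a ribosome shields from nuclease, in wild-type HEK293T cells, an established line of human embryonic kidney origin that was immortalised with SV40 large T antigen. Cells were held in sufficient medium (Suff) or in a medium that lacked only arginine (Arg-), only leucine (Leu-) or only methionine (Met-). The time in these media was 12 h by the study's methods and over night by the sample records. All 4 media were made with dialyzed serum, and all cells were of this 1 line. In 1 series cycloheximide (CHX), which stops elongating ribosomes, was put on the cells at 100 µg/ml for 3 min before they were collected, and in the other it was not. There was 1 library per medium and series, 8 in all, with no replicates. No condition can therefore be tested and no p-value is given. The error printed beside a log2 ratio is a 95% interval from the number of reads (exact binomial, Clopper-Pearson), which covers counting error only, since the reads carry no molecular identifiers, and not the spread between cultures.

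Levels are RPKM, the number of footprints per length of coding sequence as a share of the library's coding footprints, so they can be compared between genes and between libraries of a series, but they are shares of a library and do not carry its total. The libraries without CHX held 1302523 to 3139745 reads on coding sequences, and a transcript was listed there from 5 reads. With CHX they held 538222 to 6434043 reads, the Met- library the fewest, and the smallest listed count was 64. The series also differ in the coding length used for scaling and in the annotated transcript of 6 of the 36 genes, and the records name removal of duplicate reads for the series without CHX alone, while the methods do not name it, so it is not clear which libraries had it. An effect of the drug cannot be told apart from these steps. More mRNA and more ribosomes per mRNA cannot be told apart either, nor can more cells with footprints and more footprints per cell. Of the traits known for HEK293T, VIM and NEFM were listed in all 8 libraries, NEFL in 7, KRT18 in 6 and KRT8 in 4, while PAX2 was listed in 2. Of genes of other cell types, ALB, PTPRC, CD3E, AMY2A and PRSS1 were listed in none, and COL1A1 was listed in 5, at 1.59 to 20.2 RPKM.

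As background, secreted and membrane proteins enter the ER through the SEC61 channel and are folded there by the chaperones BiP (HSPA5) and GRP94 (HSP90B1), the lectins calnexin and calreticulin, and protein disulfide isomerases. Proteins that fail to fold are drawn back into the cytosol and degraded through the ligase complex of SEL1L and SYVN1. When unfolded proteins build up, IRE1 (ERN1) splices XBP1 mRNA, ATF6 is cut to a transcription factor, and the kinase PERK phosphorylates eIF2, which favours translation of ATF4. The kinase GCN2 phosphorylates the same factor when an amino acid is short, so ATF4 can be reached without the ER, while the chaperone genes are known mainly as targets of ATF6 and XBP1.

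These targets are recognised by short promoter elements, and the matches in the members' own promoters are shown because they are the letters through which the ATF6 and XBP1 arms are known to reach the chaperone genes, while HERPUD1 also holds an element that ATF4 is known to bind. Windows of 300 bases, from 250 bases before to 50 after each RefSeq start (GRCh38.p14), were available for 33 members, PDIA3, DERL1 and DERL3 being the others. The ER stress element ERSE was searched as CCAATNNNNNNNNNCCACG, ERSE-II as ATTGGNCCACG, the unfolded protein response element as TGACGTGG and the C/EBP-ATF element as TGATGNAA, each on both strands. ERSE was found in 9 of the 33 members (27.3%), against 0.133% of 15843 protein-coding genes. ERSE-II was found in 3 members against 0.095% of coding genes, TGACGTGG in 2 members (DNAJC10 and HYOU1) against 1.05%, and TGATGNAA in 1 member, HERPUD1, against 3.604%. In the sequences below, printed 5′ to 3′ on the gene's strand with 5 bases on each side, capitals mark the fixed letters of the element, and those that begin with CGTGG or TT after the flank hold it on the other strand.
HSPA5 (ERSE, chr9:125241386-125241414, minus strand): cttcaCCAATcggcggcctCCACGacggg
HSP90B1 (ERSE nearer the start, chr12:103930316-103930344, plus strand): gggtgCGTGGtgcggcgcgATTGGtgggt
CRELD2 (ERSE, chr22:49918549-49918577, plus strand): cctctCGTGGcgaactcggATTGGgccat
CALR (ERSE, chr19:12938379-12938407, plus strand): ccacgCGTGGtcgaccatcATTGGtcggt
CANX (ERSE, chr5:179698773-179698801, plus strand): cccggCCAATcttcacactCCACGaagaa
PDIA6 (ERSE, chr2:10812848-10812876, minus strand): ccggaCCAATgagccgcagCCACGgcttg
XBP1 (ERSE, chr22:28800598-28800626, minus strand): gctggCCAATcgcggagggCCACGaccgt
SDF2L1 (ERSE-II, chr22:21642109-21642129, plus strand): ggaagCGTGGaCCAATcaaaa
HYOU1 (ERSE-II nearer the start, chr11:119057269-119057289, minus strand): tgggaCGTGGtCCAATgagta
HERPUD1 (ERSE-II, chr16:56932020-56932040, plus strand): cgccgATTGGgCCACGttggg
HERPUD1 (C/EBP-ATF element, chr16:56931961-56931978, plus strand): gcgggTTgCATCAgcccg
ERO1B and SERP1 held an ERSE too, HSP90B1 held 2, and HYOU1 held 2 ERSE-II, the farther of which overlaps its TGACGTGG. The ERSE of PDIA6 lies at another RefSeq start (window 10812736 to 10813035) than that of the transcript read, which begins at 10832485. SERP1 with CHX was likewise read on a transcript that begins elsewhere, at 150603174. A match is a description of these letters and not a bound site. The members were listed as genes of this response, so a larger share than among all genes is no finding of these data.

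The members did not move as a block away from the other genes. Without CHX the median log2 ratio of the 34 members with a mean of at least 10 RPKM in the pair was 0.03 in Arg- over Suff (all genes -0.02), 0.05 in Leu- (0.14) and 0.22 in Met- (0.32), each ratio taken on RPKM + 1. In Arg- 5 members were at least 2-fold higher, where 8.23% of all 7448 genes compared were, and 2 at least 2-fold lower (5.95% of all genes). In Leu- 4 were higher (6.85% of 7558 genes) and 2 lower (2.06%). In Met- 4 were higher (20.2% of 7884 genes) and 0 lower (5.34%). Of 34 members, 5 and 4 higher are a larger share than among all genes in Arg- and Leu- and 4 a smaller share in Met-, differences of a few genes that were not tested. The 3 comparisons share the Suff library, so they are set side by side and not counted together.

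**Figure D1:**
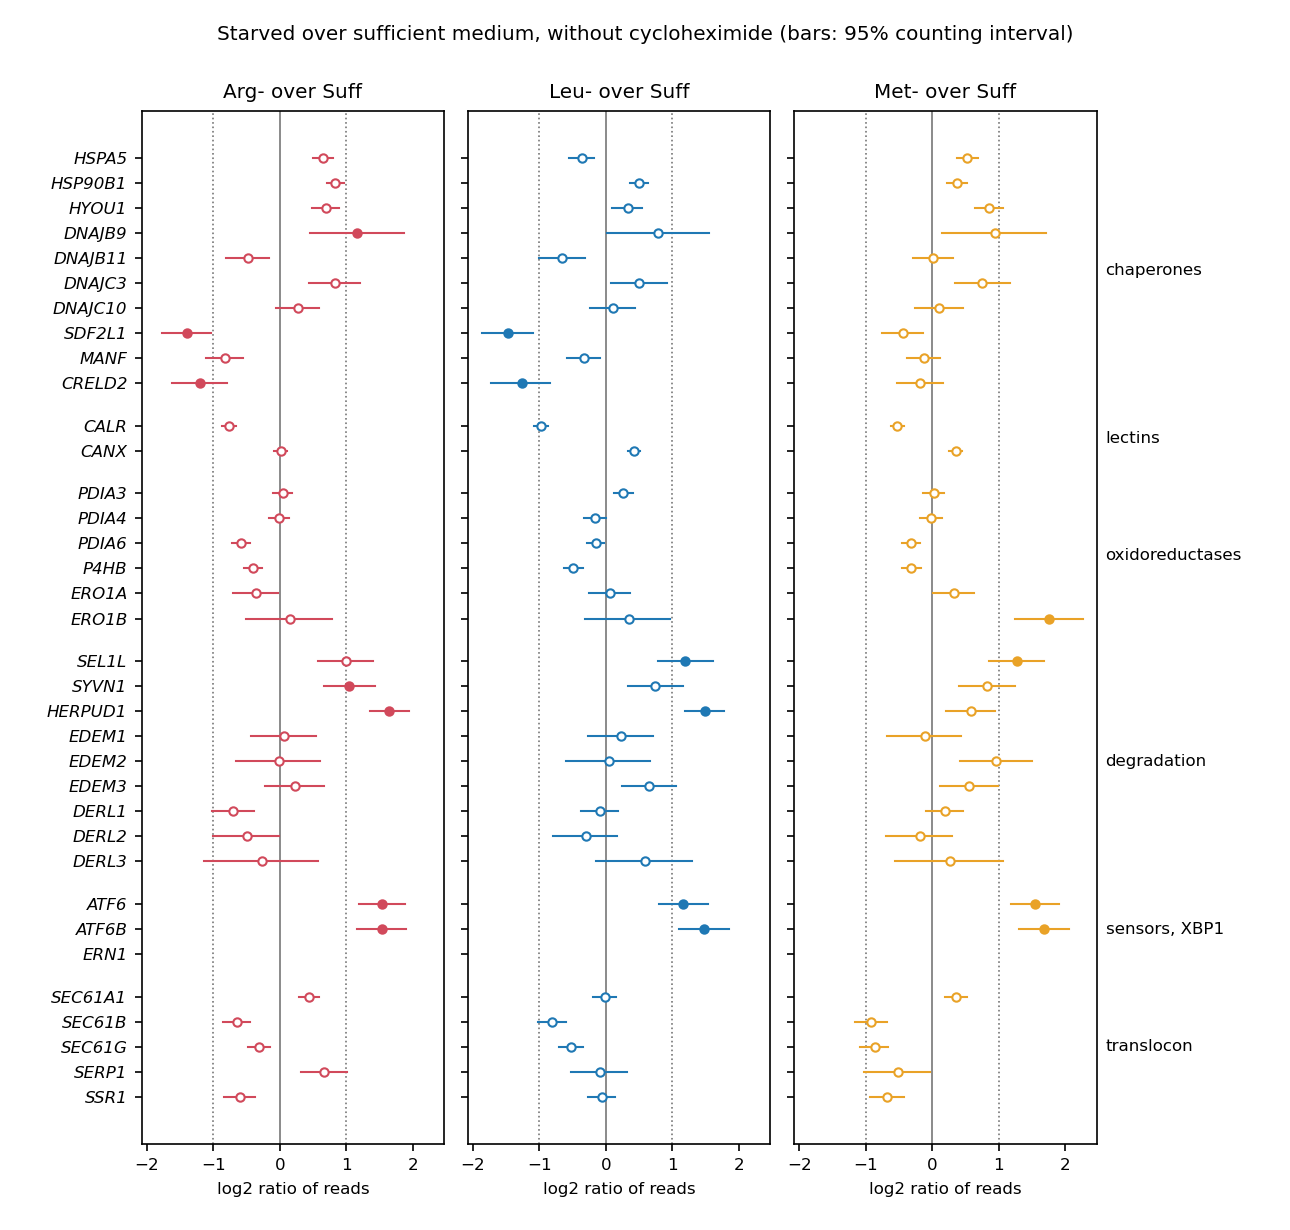
Log2 ratio of reads in Arg-, Leu- and Met- over Suff without cycloheximide for each gene, with its 95% counting interval as a bar, 1 library per medium. Filled points are at least 2-fold apart, dotted lines mark 2-fold, and ERN1 has no point because its mean was under 10 RPKM. HERPUD1 lies right of the dotted line in Arg- and Leu-, SDF2L1 and CRELD2 left of it, and ATF6 and ATF6B right of it in all 3.

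With CHX, 29 members could be compared in Arg- and in Leu-, and 11 in Met-. Their median log2 ratio was 0.16 in Arg- (all genes -0.23), 0.26 in Leu- (0.02) and 0.87 in Met- (0.89). In Arg- 9 members were at least 2-fold higher (16.6% of 5074 genes) and 3 lower (19.7%), shares that differ with coding length as given below. In Leu- 4 were higher (12.1% of 5208 genes) and 4 lower (7.28%). In Met- 3 of 11 were higher (46.7% of 1890 genes) and 0 lower (9.79%). All ratios of this series rest on its 1 Suff library, in which CANX, for example, stood at 144 RPKM against 441 to 680 RPKM in the other 7 libraries.

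Among the chaperones, the 2 large heat shock proteins of the ER differed between Arg- and Leu-. HSPA5, the ATP-driven chaperone that also holds the sensors inactive, is read on chromosome 9 (GRCh38, 125234853 to 125241343). Without CHX its level was 137 RPKM in Suff, 216 in Arg-, 107 in Leu- and 198 in Met-, so the Leu- library was the lowest and the Arg- library the highest. The log2 ratio to Suff was 0.65 in Arg- (0.50 to 0.80), -0.36 in Leu- (-0.56 to -0.18) and 0.53 in Met- (0.37 to 0.69). With CHX the order was the same at lower levels, 35.04 RPKM in Suff, 74.2 in Arg- and 19.1 in Leu-, with log2 ratios of 1.06 (0.84 to 1.33) and -0.84 (-1.16 to -0.59). HSPA5 was not listed in Met- with CHX, where fewer than 64 reads bound it at 59.7 RPKM, above its Suff level. HSP90B1, the ER form of HSP90, stood at 139.8 RPKM in Suff, 249 in Arg-, 197 in Leu- and 181 in Met- without CHX, higher in every starved library. With CHX it was 50.1, 226, 73.0 and 96.4 RPKM in the same order, a log2 ratio of 2.15 (2.003 to 2.35) in Arg-, 0.53 (0.36 to 0.73) in Leu- and 0.93 (0.63 to 1.25) in Met-.

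HYOU1, a large chaperone that acts as nucleotide exchange factor for BiP, was, like HSP90B1, above Suff in every starved library that listed it. It was at 46.6 RPKM in Suff, 75.3 in Arg-, 58.3 in Leu- and 83.9 in Met- without CHX, and at 20.6, 68.1 and 27.5 in Suff, Arg- and Leu- with CHX. The highest library was thus Met- in 1 series and Arg- in the other, where Met- did not list it. DNAJC3, a cochaperone of BiP, was above Suff in each of the 5 starved libraries that listed it, with log2 ratios of 0.49 to 0.97. DNAJB9, a cochaperone of BiP, was read from 16.1 RPKM in Suff to 36.03 in Arg- without CHX, a log2 ratio of 1.11 with a wide interval of 0.46 to 1.87. With CHX DNAJB9 was at 33.7 RPKM in Arg- and 34.2 in Leu-. Both lie under the 36.8 RPKM that the cutoff allows in Suff, where it was not listed, so no direction follows. DNAJB11 had log2 ratios of -0.47 (-0.80 to -0.16) in Arg- and -0.65 (-1.005 to -0.32) in Leu- without CHX, and DNAJC10, a reductase of the disulfide isomerase family, lay between 0.10 and 0.42 over the 5 comparisons in which it was used.

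SDF2L1 and CRELD2 had the lowest log2 ratios of the members in Arg- and Leu- without CHX. SDF2L1, a component of the BiP chaperone cycle, stood at 186 RPKM in Suff, 70.8 in Arg-, 67.2 in Leu- and 137 in Met- without CHX. With CHX it stood at 265, 48.8, 71.0 and 179 RPKM in the same order, so in both series Arg- and Leu- were the low libraries and Met- lay between them and Suff. Its log2 ratios without CHX were -1.38 (-1.77 to -1.03) in Arg-, -1.46 (-1.87 to -1.09) in Leu- and -0.44 (-0.75 to -0.14) in Met-, and with CHX -2.42 (-2.71 to -2.18), -1.88 (-2.11 to -1.68) and -0.56 (-0.96 to -0.18). CRELD2, an ER protein that can also be secreted, was at 70.6 RPKM in Suff, 30.8 in Arg-, 29.3 in Leu- and 62.2 in Met- without CHX. With CHX the levels were 132, 44.7, 61.7 and 142 RPKM, and Arg- and Leu- were again the low libraries. The log2 ratios were -1.17 (-1.63 to -0.79) and -1.24 (-1.72 to -0.84) in Arg- and Leu- without CHX and -1.54 (-1.79 to -1.34) and -1.09 (-1.29 to -0.90) with it, against -0.18 and 0.10 in Met-. The values in Met- with CHX depend on the scale, since the median of all genes was 0.89 there. Less that median SDF2L1 was at -1.45 and MANF, described next, at -1.58, both past 2-fold, while CRELD2 stayed under it. Less the median of genes of like coding length CRELD2 was at -1.21 and SDF2L1 at -1.02, both past 2-fold. MANF stayed under 2-fold on that scale, the median of its length quartile being -0.24. SDF2L1 had 64 reads in Met- with CHX, the smallest listed count. Both medians are over genes listed there, which leaves out genes under 64 reads, so distances from them are not read as decreases. MANF, a secreted factor that binds BiP, was read at 279, 157, 221 and 256 RPKM without CHX and at 937, 239.5, 390.4 and 579 RPKM with it, in the order Suff, Arg-, Leu-, Met-. Suff was the highest library in both series, with the log2 ratio in Arg- at -0.83 (-1.11 to -0.55) without CHX and -1.96 (-2.11 to -1.83) with it, from the nearest whole numbers of reads, since its annotated coding length did not give whole reads.

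**Figure D2:**
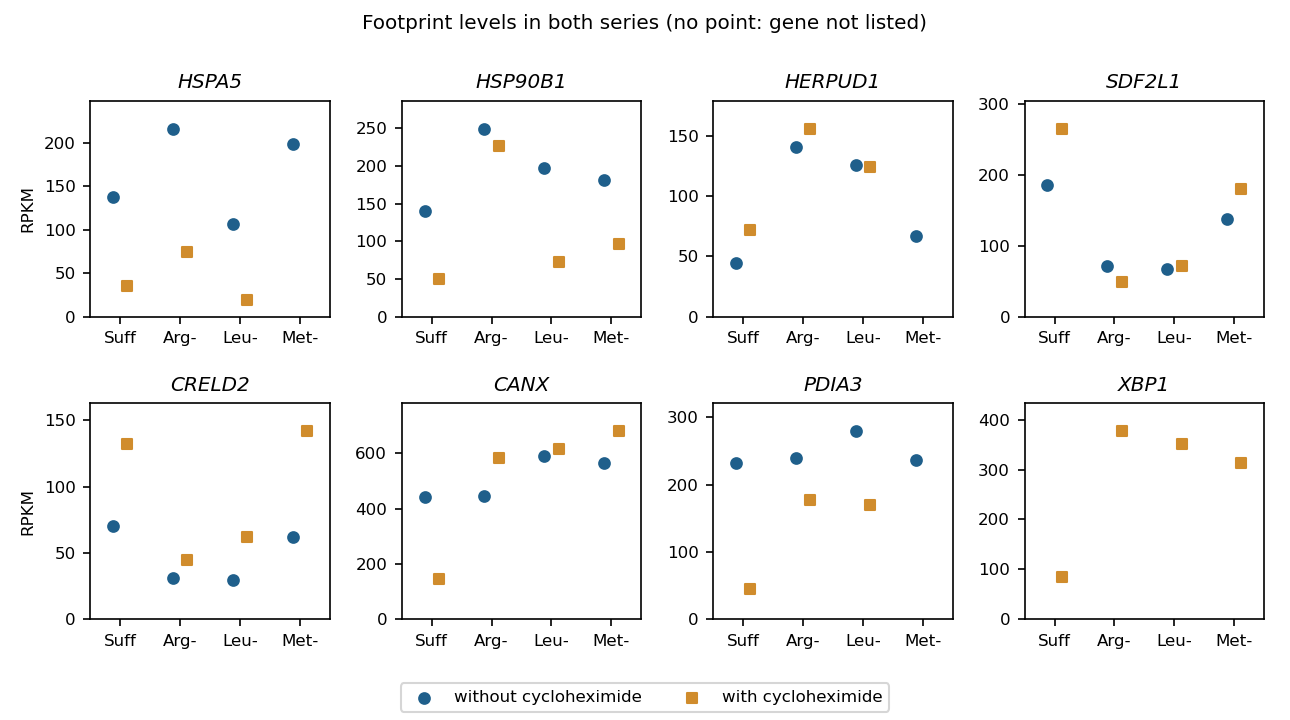
RPKM of 8 genes in the 4 media without (circles) and with (squares) cycloheximide, each axis from 0, 1 library per point, no point where the gene was not listed. SDF2L1 and CRELD2 are low in Arg- and Leu- in both series, HERPUD1 is high there, HSPA5 is lowest in Leu-, and CANX, PDIA3 and XBP1 have their lowest point in Suff with cycloheximide.

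The lectins bind glycoproteins whose sugar has been trimmed to a single glucose, calreticulin (CALR) in the lumen and calnexin (CANX) in the membrane. CALR stood at 856 RPKM in Suff, 504 in Arg-, 435 in Leu- and 596 in Met- without CHX, the highest in Suff, and at 447, 546, 540 and 887 RPKM with CHX, the lowest in Suff. Its log2 ratios were -0.76, -0.97 and -0.52 without CHX and 0.29, 0.27 and 0.99 with CHX, in the order Arg-, Leu-, Met-. CANX was at 441, 446, 592 and 564 RPKM in Suff, Arg-, Leu- and Met- without CHX, within a log2 ratio of 0.02 to 0.42. With CHX it was at 144, 584, 617 and 680 RPKM, log2 ratios of 2.01 (1.90 to 2.14), 2.09 (1.99 to 2.22) and 2.23 (2.08 to 2.40). The starved libraries lay at similar levels in both series, and the Suff library with CHX stood apart from the other 7.

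Of the oxidoreductases, which form and shuffle disulfide bonds, 5 of 6 lay within 2-fold of Suff in all 3 starvations without CHX. PDIA3, the isomerase that works with the lectins, ranged from 232 to 279 RPKM over the 4 libraries without CHX. With CHX it was at 44.6 RPKM in Suff, 177 in Arg- and 170 in Leu-, log2 ratios of 1.96 (1.76 to 2.22) and 1.91 (1.70 to 2.16), and it was not listed in Met-. PDIA4 behaved alike, at 153 to 171 RPKM without CHX and at 65.0 RPKM in Suff, 166 in Arg-, 188 in Leu- and 165 in Met- with it. So for both genes the 2-fold differences were present in the series with CHX and not in the other. PDIA6 was below Suff in the 3 starved libraries without CHX (250.2 to 337 RPKM against 375) and above it in all 3 with CHX (336 to 559 RPKM against 301). P4HB, the common disulfide isomerase, lay within log2 ratios of -0.49 and 0.24 over the 6 comparisons. ERO1A, the oxidase that recharges the isomerases, lay between -0.36 and 0.32. ERO1B, its paralogue, was read at 13.2 RPKM in Suff, 14.6 in Arg-, 16.7 in Leu- and 44.3 in Met- without CHX, so Met- stood apart with a log2 ratio of 1.68 (1.25 to 2.26), and the gene was not listed in Met- with CHX.

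**Figure D3:**
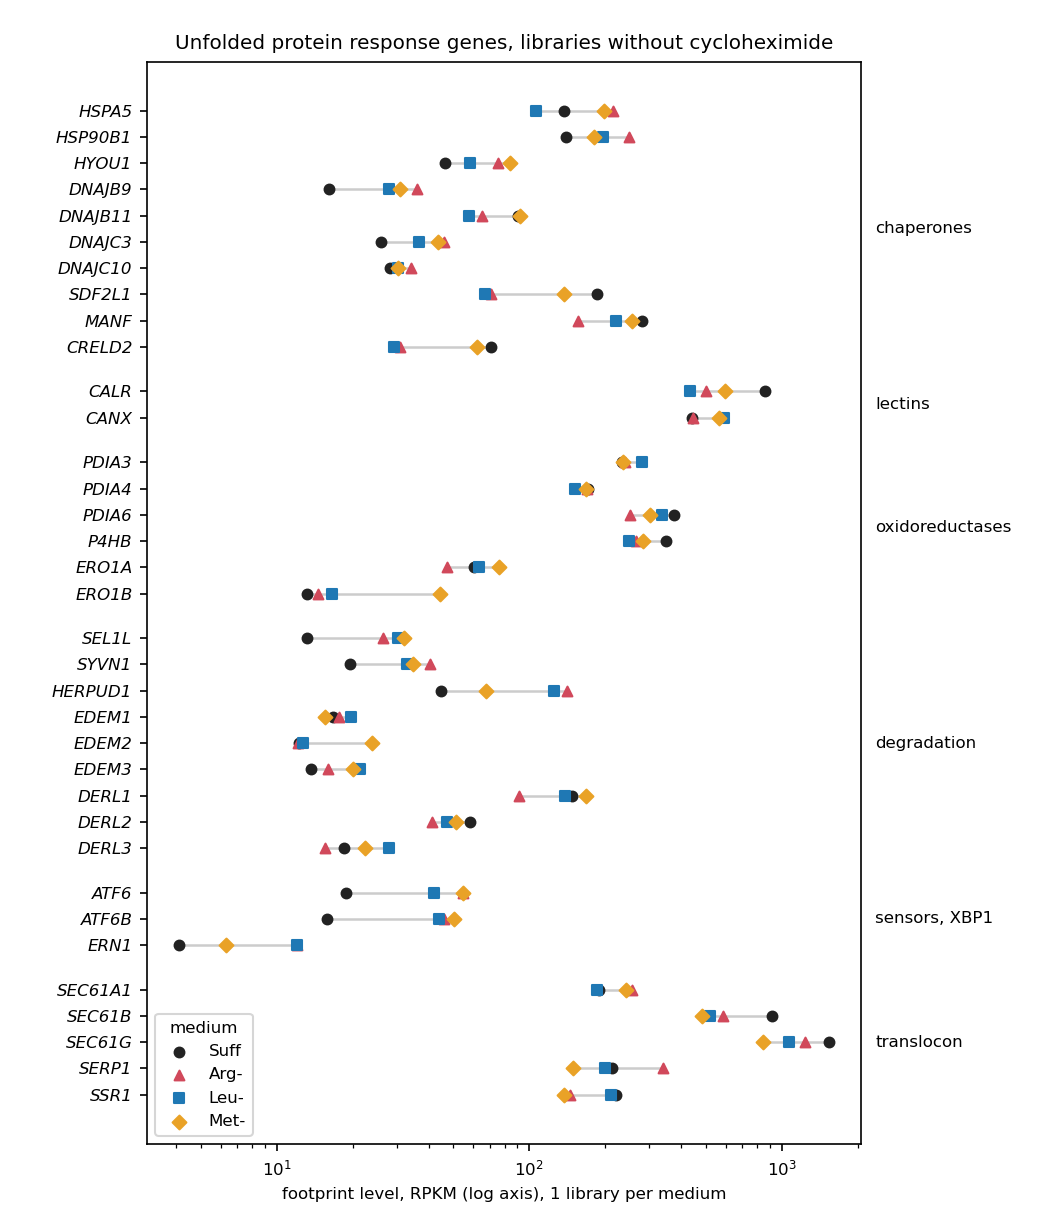
RPKM of 35 genes (log axis) in the 4 libraries without cycloheximide, 1 symbol per medium, with a grey line from the lowest to the highest library of each gene. SEC61G, SEC61B, CALR and CANX are the most abundant in Suff, ERN1 the least, and ATF6, ATF6B and SEL1L have Suff as their lowest library.

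Among the degradation genes HERPUD1 had the largest log2 ratios in Arg- and Leu- without CHX. It encodes a membrane protein that brings the ligase complex together (chromosome 16, 56932142 to 56944864). Without CHX it was at 45.0 RPKM in Suff, 141 in Arg-, 126 in Leu- and 67.2 in Met-, so Suff was lowest and Met- lay nearer to Suff than to the other starved media. The log2 ratios were 1.63 (1.36 to 1.94), 1.46 (1.18 to 1.78) and 0.57 (0.21 to 0.94). With CHX it was at 72.3, 156 and 124 RPKM in Suff, Arg- and Leu-, log2 ratios of 1.095 (0.89 to 1.33) and 0.78 (0.57 to 1.004). SEL1L, the adaptor of the ligase, was at 13.2 RPKM in Suff, 26.3 in Arg-, 30.3 in Leu- and 31.9 in Met- without CHX, log2 ratios of 0.94 (0.58 to 1.41), 1.14 (0.79 to 1.60) and 1.21 (0.85 to 1.69). SYVN1, the ligase itself, was at 19.6 RPKM in Suff and at 32.8 to 40.5 in the starved libraries, with its largest log2 ratio in Arg- at 1.012 (0.67 to 1.43), which was 0.65 at like coding length. Neither gene was listed in Suff with CHX, where the cutoff of 64 reads allows SEL1L up to 10.3 RPKM and SYVN1 up to 13.3, and this makes them at least 2.69-fold and 1.88-fold higher in Arg- and at least 1.64-fold higher each in Leu-.

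The mannosidase-like EDEM proteins mark glycoproteins for degradation and the derlins pass substrates through the membrane, and neither family moved together. EDEM1 lay between log2 ratios of -0.10 and 0.39 in the 5 comparisons in which it was used. EDEM2 reached 0.90 (0.41 to 1.497) in Met- without CHX, where it was at 23.9 RPKM against 12.3 in Suff, and -0.76 (-1.27 to -0.36) in Arg- with CHX. EDEM3 was above Suff in all 5, at 0.21 to 0.92, and its 0.92 in Leu- with CHX was above that of HERPUD1 there. DERL1 and DERL2 were within 2-fold in each comparison, and DERL3, at 15.5 to 27.8 RPKM, had intervals that all included 0.

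Of the sensors, ATF6 and ATF6B, membrane proteins whose cytosolic part becomes a transcription factor, were at least 2-fold higher than Suff in all 3 starvations without CHX. ATF6 (chromosome 1, 161766320 to 161964070) was at 18.8 RPKM in Suff, 54.6 in Arg-, 42.1 in Leu- and 54.9 in Met- without CHX. Suff was the lowest library, with log2 ratios of 1.49 (1.19 to 1.88), 1.12 (0.79 to 1.54) and 1.496 (1.18 to 1.91). ATF6B, its paralogue, was at 15.8, 45.9, 43.97 and 50.5 RPKM in the same order, log2 ratios of 1.48 (1.17 to 1.91), 1.42 (1.097 to 1.85) and 1.61 (1.30 to 2.05). Both have long coding sequences, and long genes as a whole were higher in these libraries, as given below with the values at like length. With CHX neither was listed in Suff, which allows them up to 12.2 and 11.7 RPKM, so ATF6 was at least 2.64-fold higher in Arg- and 1.79-fold in Leu-, and ATF6B at least 2.25-fold and 1.91-fold. ERN1, the IRE1 kinase and nuclease, was at 4.13 RPKM in Suff (38 reads), 12.1 in Arg- (57 reads), 12.1 in Leu- (53 reads) and 6.28 in Met- (24 reads) without CHX. Its mean was under 10 RPKM in each pair with Suff, so it is given outside the counts, with log2 ratios on reads of 1.55 (0.93 to 2.18), 1.55 (0.92 to 2.19) and 0.61 (-0.19 to 1.38). With CHX ERN1 was at 6.33 RPKM in Arg- and 4.93 in Leu-. Both lie under the 8.40 RPKM that the cutoff allows in Suff, where it was not listed, so no direction follows.

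XBP1 was not listed in any library without CHX, and no bound on its level follows, since the sources used here do not say whether the annotation used for that series held its transcript. With CHX it was at 85.3 RPKM in Suff, 376 in Arg-, 350.3 in Leu- and 313 in Met-, the Suff library the lowest, with log2 ratios of 2.13 (1.91 to 2.38), 2.03 (1.81 to 2.27) and 1.86 (1.54 to 2.21). Less the median of all genes the ratio in Met- was 0.975, under 2-fold. The median of its length quartile there was 0.46, and less that median the ratio stayed past 2-fold. The transcript listed encodes 261 codons, those of the unspliced form, and footprints of the spliced form were not separated. The XBP1 ratios therefore have no second series beside them, and the Suff library they rest on is the one in which CANX and PDIA3 stood apart.

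The translocation genes did not move together. SEC61A1, the channel itself, was at 189 RPKM in Suff, 256 in Arg-, 186 in Leu- and 243 in Met- without CHX and at 85.9, 238, 117 and 121 RPKM with it, so Arg- was highest in both series. SEC61B, a small channel subunit, was at 913, 585, 521 and 483 RPKM without CHX, on a transcript of 96 codons, and at 1702, 1003 and 653 RPKM in Suff, Arg- and Leu- with it, on another transcript of 42 codons, highest in Suff each time. Its log2 ratios were -0.64 (-0.85 to -0.44), -0.81 (-1.03 to -0.60) and -0.92 (-1.16 to -0.69) without CHX and -0.76 (-0.93 to -0.60) and -1.38 (-1.56 to -1.21) with it. SEC61G, another small subunit and the most abundant of these genes without CHX, was at 1536, 1239, 1071 and 842 RPKM in Suff, Arg-, Leu- and Met-, a log2 ratio of -0.87 (-1.08 to -0.66) in Met-. SERP1, which shields new membrane proteins at the channel, was high in Arg- without CHX (341 RPKM against 214 in Suff, 200.1 in Leu- and 149 in Met-) and not with it (832 against 852 in Suff), where it was read on another transcript, of 66 codons in place of 78. SSR1, a subunit of the translocon-associated complex, had log2 ratios of -0.60 and -0.67 in Arg- and Met- without CHX and of -0.06 to 0.26 in the other 3 comparisons in which it was used.

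The media were also compared in both series, since each series has a Suff library of its own. In Arg- over Suff 20 of 28 members had the same sign with and without CHX (71.1% of 4765 genes), in Leu- 20 of 28 (71.2% of 4871 genes) and in Met- 6 of 10 (70.5% of 1797 genes). At least 2-fold in both series in Arg- were HERPUD1 on the higher side (2.6% of all genes) and SDF2L1 and CRELD2 on the lower (3.84%). In Leu- no member was 2-fold higher in both (2.09% of all genes), and SDF2L1 and CRELD2 were 2-fold lower in both (1.31%). In Met- there was none on either side, where 10.2% of all genes were higher in both and 2.89% lower.

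**Figure D4:**
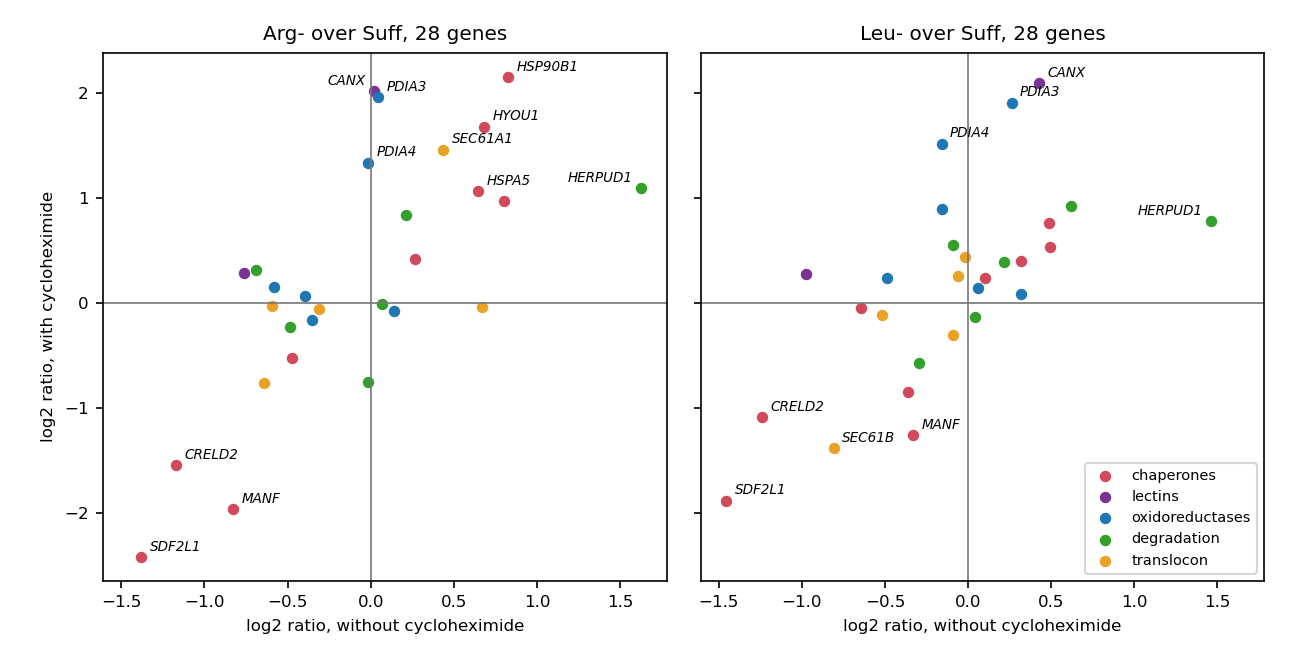
Log2 ratio to Suff with cycloheximide (vertical) against without (horizontal) in Arg- and Leu- for the 28 genes compared in both series, coloured by role and named where either ratio reached 2-fold. SDF2L1 and CRELD2 sit at the lower left and HERPUD1 at the right in both panels, while CANX, PDIA3 and PDIA4 are high on the vertical axis alone.

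Leu- was then set directly against Arg-, a comparison that was chosen after the values were seen and that does not use the Suff libraries. HSPA5 was 2.01-fold lower in Leu- than in Arg- without CHX (log2 ratio -1.01, -1.21 to -0.82) and 3.74-fold lower with CHX (-1.90, -2.17 to -1.75). It was the only member at least 2-fold lower without CHX (1.21% of all genes), and 4 were with CHX (4.15%), namely HSPA5, HSP90B1, HYOU1 and SEC61A1. With CHX the log2 ratio of Leu- over Arg- fell with coding length (Spearman correlation -0.36 over 6642 genes). In the quartile with the longest coding sequences, which holds HSPA5, HSP90B1 and HYOU1, 10.9% of genes were 2-fold lower. In the quartile of SEC61A1 2.77% were. The part of length was not tested. HSP90B1 was at -0.34 (-0.48 to -0.20) without CHX and -1.62 (-1.73 to -1.53) with it, HYOU1 at -0.36 (-0.60 to -0.14) and -1.28 (-1.46 to -1.15), and SEC61A1 at -0.46 (-0.65 to -0.28) and -1.02 (-1.14 to -0.92). For these 4 genes Leu- was below Arg- in both series with intervals that did not include 0. No member was 2-fold higher in Leu- than in Arg-, where 3.56% of genes were without CHX and 5.2% with CHX. HSPA5 was 1 of 14 among 6393 genes (0.219%) that were 2-fold lower in both series, and none of the members was among the 0.735% that were 2-fold higher in both. PDIA6 and DERL1 went the other way, PDIA6 at 0.43 (0.27 to 0.59) without CHX and 0.73 (0.67 to 0.81) with it, and DERL1 at 0.60 (0.25 to 0.97) and 0.24 (0.06 to 0.42).

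Genes of the same pathways that are not members were read from lists. Of other ER folding genes, 23 were compared in Arg- without CHX, with a median log2 ratio of -0.03, 2 at least 2-fold higher and 4 lower, 23 in Leu-, with a median of 0.16, 2 higher and 1 lower, and 25 in Met-, with a median of 0.04, 5 higher and 1 lower. Other ER degradation genes had medians of -0.03, 0.14 and 0.21 in Arg-, Leu- and Met- without CHX, with 0, 1 and 4 of 22 higher and 0, 0 and 2 (UBE2G2 and UFD1) lower. Other translocation and glycosylation genes had medians of -0.23, -0.04 and -0.12, with 0 of 25 higher in each and 1 lower, DAD1 in Arg-. With CHX the medians in Arg-, Leu- and Met- were 0.04, 0.21 and -0.34 for other ER folding genes (15, 15 and 7 compared), -0.32, 0.13 and 0.98 for other ER degradation genes (19, 19 and 9) and -0.08, -0.06 and 0.34 for translocation and glycosylation genes (22, 22 and 11). At least 2-fold higher there were 4, 5 and 3 of the folding genes, 3, 1 and 4 of the degradation genes and 4, 3 and 4 of the translocation and glycosylation genes, and 2-fold lower were 5, 1 and 2, 4, 3 and 1, and 1, 2 and 2. Of all genes, 16.6%, 12.1% and 46.7% were 2-fold higher in Arg-, Leu- and Met- with CHX, and 19.7%, 7.28% and 9.79% lower. Without CHX 8.23%, 6.85% and 20.2% were higher, and 5.95%, 2.06% and 5.34% lower. Genes of the ATF4 arm stood elsewhere. Of the 20 genes in this list, all 16 that were compared without CHX were at least 2-fold higher in Arg- (median 2.75) and in Leu- (2.18). In Met- without CHX 16 of 17 were (1.96), and with CHX 9 of 11, 11 of 11 and 8 of 8. A gene low in Suff reaches the mean of 10 RPKM only where the starved library is high, so the counts without CHX are partly set by that minimum. In Arg- and Leu- it left out EIF2AK3, VLDLR and JDP2. Their levels in Suff and Arg- were 3.61 and 5.93, 0.97 and 5.92, and 4.85 and 14.2 RPKM. With CHX a gene low in Suff is listed in Met- only where at least 64 reads fell on it in that small library. The 8 of 8 is therefore partly set by that cutoff, in a comparison where 46.7% of all genes were 2-fold higher. This pattern of the ATF4 arm was known from earlier results of these data and is given only to place the ER genes beside it.

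By promoter, the 12 members with an ERSE or ERSE-II match had a median log2 ratio of 0.14 in Arg-, -0.09 in Leu- and 0.35 in Met- without CHX over the 11 that were compared, and the members with neither 0.03, 0.05 and 0.21. In Arg- with CHX the medians were 0.67 for the 12 and -0.03 for 15 with neither. They were 0.34 and 0.23 in Leu- with CHX, and 0.93 over 7 and 0.19 over 4 in Met- with CHX. The median of members with a match was thus lower in Leu- without CHX and higher in the other comparisons, which was not tested. The 12 include the highest ratio of Arg- without CHX (HERPUD1, 1.63) and the lowest (SDF2L1, -1.38), both with an ERSE-II, so single genes that hold the element went both ways.

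Coding length moved with these ratios. Without CHX the Spearman correlation of the log2 ratio with coding length was 0.54 over 34 members and 0.36 over 7215 genes in Arg-, 0.50 and 0.31 in Leu-, and 0.58 and 0.44 in Met-, as a description across genes that share the same libraries. Over all genes the median log2 ratio in Met- went from -0.16 in the quartile with the shortest coding sequences to 0.79 in the longest, and in Arg- from -0.31 to 0.36. With CHX the correlations were 0.57 over 29 members and 0.47 over 4905 genes in Arg-, 0.48 and 0.42 in Leu-, and 0.52 and 0.54 in Met-. In Arg- with CHX 35.3% of the longest quartile, which held 9 members, were 2-fold higher, against 2.04% of the shortest, which held 4. In Arg- and Leu- without CHX 8 members are in the shortest quartile, of which SEC61B (288 nt), SEC61G (204 nt), MANF (546 nt), SDF2L1 (663 nt) and DERL2 (717 nt) were below Suff in both, DNAJB9 (669 nt) was above it in both, at 1.11 and 0.75, and SERP1 (234 nt) and DERL3 (717 nt) were above it in 1 of them. Members of the longest quartile include ATF6 (2010 nt), ATF6B (2109 nt), SEL1L (2382 nt) and HYOU1 (2997 nt). Less the median of their own length quartile, ATF6 in Met- without CHX was at 0.70, ATF6B at 0.82 and SEL1L at 0.42, ATF6 in Leu- at 0.72 and SEL1L at 0.74, and SYVN1 in Arg- at 0.65, all under 2-fold, while DNAJB9 in Met- was past it at 1.06. HERPUD1, SDF2L1 and CRELD2 in Arg- and Leu-, ATF6 and ATF6B in Arg-, and ATF6B in Leu- stayed past 2-fold on that scale without CHX. With CHX HSPA5 in Arg- was then at 0.53, PDIA4 at 0.80 in Arg- and -0.22 in Met-, CANX in Met- at 0.68, and MANF and SEC61B in Leu- at -0.84 and -0.96, all under 2-fold, while HSPA5 in Leu- was past it at -1.27. Less the median of all genes, SEL1L was under 2-fold in Leu- and Met- without CHX (0.996 and 0.89), as was ATF6 in Leu- (0.98), and SEC61B in Met- was past it at -1.23. The part of length in these results was not tested further.

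**Figure D5:**
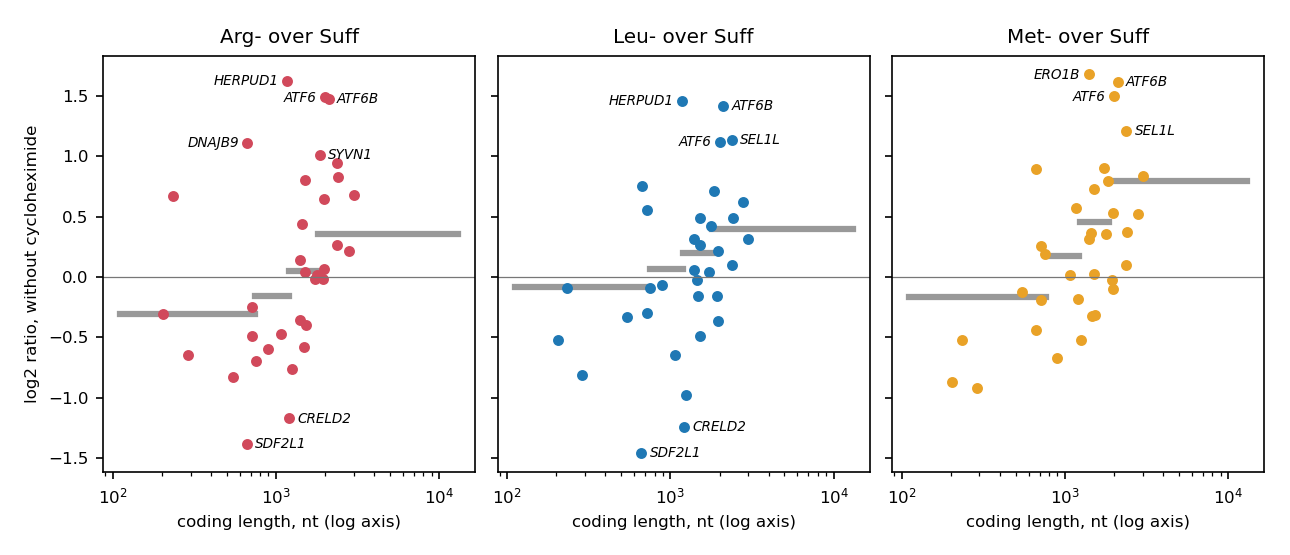
Log2 ratio to Suff without cycloheximide against coding length (log axis) for the genes compared, 1 panel per medium, named where at least 2-fold. Grey bars are the medians of all genes in each quartile of coding length, from -0.16 in the shortest to 0.79 in the longest quartile in Met-, and SEL1L, ATF6 and ATF6B lie 0.42 to 0.82 above that last bar.

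The share of the missing amino acid in the protein was ordinary for these genes. The median over 34 members was 5.26% arginine (all genes 5.63%), 9.68% leucine (9.73%) and 2.19% methionine (2.21%). SEC61B had the most arginine of the members, at 8.33%, and SEC61G the most methionine, at 5.88%, while DERL3 had the most leucine, at 16.7%. Spearman correlations of the share with the log2 ratio of its own starvation were -0.12, 0.29 and 0.09 over the members and 0.034, -0.0029 and -0.082 over all genes.

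Most members cannot be read in Met- with CHX. It listed 11 of the 36. The other 25 were not listed, which bounds those listed elsewhere in the series to fewer than 64 reads. DERL3 was listed in no library with CHX, so no bound follows for it, as for XBP1 without CHX. Of the 18 unlisted members that had a Suff value, 13 have a limit above that value, so nothing can be said of their direction. The limit lay below Suff for DNAJB11 (at most 109 RPKM against 121), SEC61B (929 against 1702), SEC61G (574 against 2114), SERP1 (591 against 852) and SSR1 (136 against 258). For all of these but DNAJB11 (log2 ratio 0.02) this is also the direction of Met- without CHX.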

How the data were processed

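Ribosome footprints were measured in 8 libraries of HEK293T cells. The authors deposited 1 RPKM value for each listed transcript (Ensembl identifiers). For this they trimmed adaptors, kept reads of 25 to 35 nt, aligned them with Bowtie to the human transcriptome (GRCh38, annotation release not given in the sources used here), kept uniquely mapped reads and scaled the reads on each coding sequence. The records name removal of duplicates for the series without CHX.

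Transcripts were matched to GENCODE release 44 (96.7% to 97.1% per library), and the highest transcript per gene and library was kept. Ratios were log2((RPKM + 1)/(RPKM in Suff + 1)) over genes listed in both libraries with a mean of at least 10 RPKM, which understates changes of low genes, and a gene was counted at a log2 ratio of 1 or more. Reads were recovered from whole steps of RPKM times coding length (tolerance 0.01, 97.1% to 97.4% of matched transcripts whole), for MANF and PDIA4 as the nearest whole number. Motifs were searched in RefSeq promoter windows.

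The genes and lists were chosen with earlier results of these data known. Described in full were genes at least 2-fold apart in the same direction in both series, genes 2-fold apart in 2 or more starvations without CHX, ATF6, ATF6B, ERN1, XBP1, HSPA5 and HSP90B1, and all others were accounted for. The 8 alternatives were a pseudocount of 0.1, a mean of at least 50 RPKM, no minimum, genes listed in either library, the transcript highest in Suff, summed transcripts, ratios centred on the median of all genes, and at least 64 reads. Ratios less the median of the coding length quartile were added after seeing the data, as was Leu- against Arg-. The scripts were tested on simulated data. Analyses ran in Python 3.11.15 with pandas 2.3.3 and numpy 2.4.6, intervals came from scipy 1.17.1 and figures from matplotlib 3.10.9.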

Additional observations from a re-analysis of the deposited data

Results flagged for a closer look

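Some genes had log2 ratios of opposite sign in the 2 series, each with a counting interval that did not include 0. The difference was not tested, since there is 1 library per condition. CALR was at -0.7623 without CHX and 0.2871 with it in Arg-, at -0.9749 and 0.2707 in Leu-, and at -0.5215 and 0.9852 in Met-. PDIA6 was at -0.5825 without CHX and 0.1553 with it in Arg-, at -0.1543 and 0.8896 in Leu-, and at -0.3213 and 0.8658 in Met-. P4HB was at -0.489 without CHX and 0.236 with it in Leu-, and DERL1 at -0.6919 and 0.3104 in Arg-. For CALR the Suff library was the highest of 4 without CHX and the lowest of 4 with it.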

How the results depend on the processing

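No paired analysis was possible because each condition has 1 library and the labels carry no replicate numbers. With a pseudocount of 0.1, no minimum RPKM, the transcript highest in Suff or summed transcripts, every count and median of the members stayed within 1.5 times or within the counting error. With a mean of at least 50 RPKM, the members at 2-fold without CHX were 3 in Arg- (7 at 10 RPKM), 2 in Leu- (6) and 0 in Met- (4), the Arg- median was -0.355, and 2 were left in Leu- against Arg- with CHX (4), because fewer genes pass the minimum. For the same reason the members at 2-fold in both series were then 1 in Leu- (2) and 0 in Leu- against Arg- (1), and those of the same sign 12 of 19 and 13 of 18. At least 64 reads left 1 in both series in Leu-, CRELD2 having 53 reads in Leu- without CHX. Centred on the median of all genes, the members' median was -0.093 in Met- without CHX, 0.3869 in Arg- with CHX and -0.0235 in Met- with CHX. Less the median of the length quartile, 2 members were at 2-fold in Met- without CHX with a median of -0.1471, the median was 0.0334 in Leu- and -0.4499 in Met- with CHX, PDIA4 in Met- with CHX was at -0.2238 in place of 1.33, and Leu- against Arg- without CHX had 2 members at 2-fold (HSPA5 and SERP1). With unlisted genes counted as 0, Met- with CHX had 18 members at 2-fold and a median of -4.6796, by construction, since 25 members were not listed there, and 7, 4 and 12 members agreed in both series (2-fold in Arg-, 2-fold in Leu-, sign in Met-). HERPUD1, SDF2L1 and CRELD2 in Arg- and Leu- without CHX stayed past 2-fold under every alternative that kept them. Depth limits the genes under 64 reads with CHX.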
